A study of Sparus aurata with 6 samples.

Results

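The transcripts described here were 100 microarray targets of the gilthead seabream (Sparus aurata) intestine that were brighter in fish fed a plant leaf extract by every probe that measures them. They were chosen from 15156 target names on the array, of which 6780 had at least 2 probes. On 5 of the 6 arrays, 4503 of these were measured, meaning that each of their probes lay well above background in most of its spots. A target was kept when, for each of its probes, the lowest value on the extract diet lay above the highest control value, and 221 targets met this. The 100 with the largest difference in their weakest probe are the members. The values that chose the members are those of control pools 1 and 3 and of the 3 extract pools, so their differences are given as a description and without a test.

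Juvenile fish were fed a low-fishmeal basal diet (control diet) or the same diet with a 0.1% inclusion of medicinal plant leaf extract (MPLE diet), made from lemon verbena (Lippia citriodora) and sage (Salvia officinalis), for 92 days. The labels give the juveniles a weight of 174 g on the control diet and 190 g on the MPLE diet. RNA from the mid-anterior intestine of single fish was combined into 3 pools per diet of 4 fish each, and each pool was hybridised to 1 one-colour oligonucleotide array. The 3 pools of a diet drew on the same 4 tanks, so the spread between them is a spread between groups of fish and not between tanks. As in any whole tissue, more cells of a type and more RNA per cell cannot be told apart in these signals.

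The anterior intestine of fish absorbs nutrients through its enterocytes, keeps luminal microbes out through mucus from goblet cells and through the junctions that seal the epithelium, and houses scattered immune cells. Sage leaf is a source of the triterpenoid ursolic acid, and lemon verbena of the phenylpropanoid verbascoside, both studied for their antioxidant and anti-inflammatory properties. On an oligonucleotide array, different probes of a target are different short sequences from the same assembled transcript or cDNA clone. A change in that transcript can move all of its probes, whereas a flaw of a single spot, or RNA that binds only 1 of the probes, moves that probe alone.

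The files do not pair target names with genes. None of the 15156 names matched a gene symbol, locus tag or accession in a table of 32006 RefSeq genes (assembly fSpaAur1.1). The lists drawn up for pathways of the intestinal wall and for markers of its cell types could therefore not be counted among the members, and the labelled tissue could not be checked against its markers. Of the names, 45 of the 100 members carried one that starts with cDN (38.7% of all measured targets), 31 a Contig name (31.6%) and 22 a Seabream name (25.3%). The other 2 members had names of another form. Different names may belong to the same gene, and how often this occurred among the members is not known.

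Signals were scaled by subtracting each array's 75th percentile on the log2 scale, so that a value of 0 is that array's 75th percentile and negative values are dimmer. The array of control pool 2 was dim. Its 75th percentile signal was 153 intensity units, against 1336 to 2371 on the other 5 arrays. Only 43.2% of its spots lay well above background, against 71.7 to 87.6%, and its spike-in spots had a median of 8.81 log2 units against 11.33 to 11.73, so it was not used in choosing the members. The 3 control arrays were scanned on 1 day and the 3 MPLE arrays on another, and the diets also occupied different positions on the slides. Diet, scan day and slide position cannot be told apart in any value below.

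Among the 4503 measured targets, 4.91% (221) were higher on the MPLE diet by every probe and 3.2% (144) were lower by every probe. Of these calls in either direction, 60.5% were thus higher on the MPLE diet. The split moved with the processing. It was 76.8% (298 higher, 90 lower) when normexp-corrected median spot signals replaced the processed signal, which also raised the median difference of all measured targets from 0.04 to 0.18 log2 units. In the authors' deposited log2 table, which is not scaled between arrays, 43 targets were higher and 51 lower (45.7% higher). With quantile normalization the split was 183 to 176.

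Single probes separated the diets more often than whole targets did, as must be so when a target needs every one of its probes. Of 20227 probes above background on the 5 arrays, 12.8% were higher on the MPLE diet without overlap and 11.3% were lower. Among the 4405 targets with 3 probes, 3217 had no such higher probe, 664 had 1 and 305 had 2, while 219 had all 3. With only 2 control and 3 MPLE arrays, the arrays can fall in few orders. A sizeable share of probes can therefore separate in each direction without any difference between diets. How much of the 12.8% and 11.3% this makes up was not tested. These shares are therefore not counts of probes that respond to the diet. All 100 members had 3 probes, which gives 300 probes and 387 spots. In 71 members each probe was a single spot and in 29 it was spotted in duplicate. None of these spots was saturated and 1 carried an outlier flag.

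**Figure D1:**
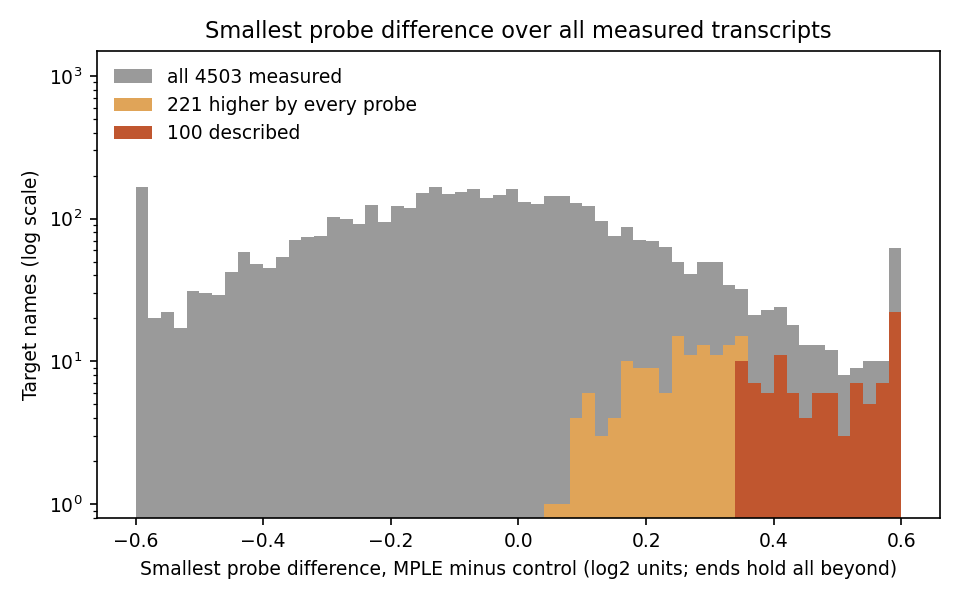
Number of targets (log scale) by the difference of their weakest probe, MPLE mean minus the mean of control pools 1 and 3 in log2 units, for all 4503 measured targets, the 221 higher by every probe and the 100 described; the end bins hold all values beyond them. The 100 lie at the right edge by construction, starting at 0.35.

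The members differed by modest amounts, with a single exception. The difference between diets, averaged over the probes of a target, had a median of 0.55 log2 units (1.47-fold) among the 100, with quartiles of 0.50 and 0.66, against a median of 0.04 over all measured targets. It was at most 1.5-fold in 58 members, between 1.5-fold and 2-fold in 39, between 2-fold and 3-fold in 2, and above 3-fold in 1. For all 4503 measured targets, 2.89% were higher on the MPLE diet by over 1.5-fold and 0.355% by over 2-fold, while 1.69% and 0.466% were lower by these folds. At the limit of 100, the last member and the first target outside had weakest-probe differences that were both 0.35, and mean differences of 0.44 and 0.40, so the members shade into the 121 targets left out.

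**Figure D2:**
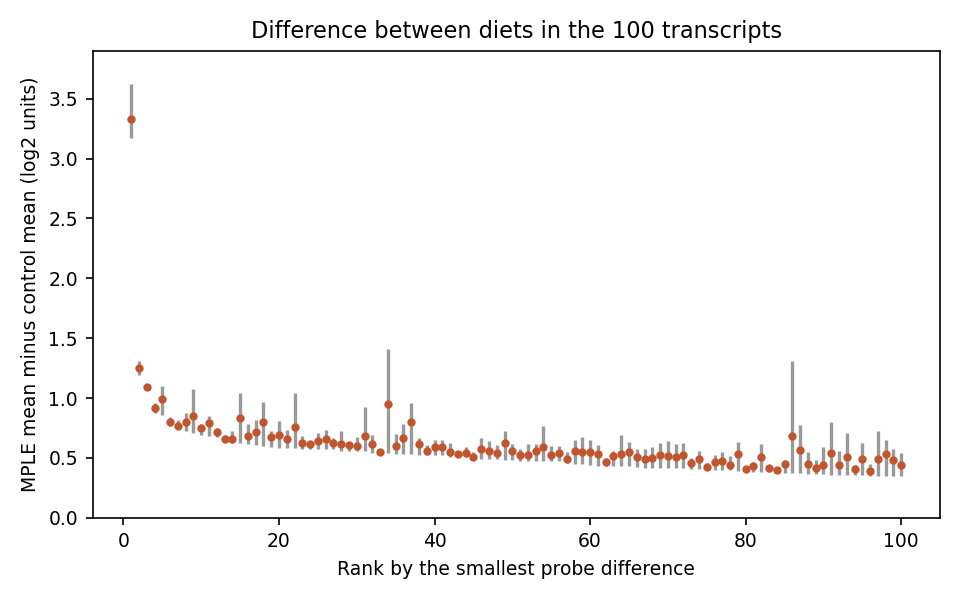
Difference between diets in log2 units (MPLE mean minus the mean of control pools 1 and 3) for each of the 100 members, in order of their weakest probe; points are the mean over the 3 probes and vertical lines run from the weakest to the strongest probe. The first member stands at 3.33 and the rest lie between 0.39 and 1.25.

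The target with the largest difference was cDN11P0006E17.F.ab1. Its values were -2.68 in control pool 1, 0.83 in control pool 2 and -2.24 in control pool 3, and 1.04, 0.59 and 0.99 in MPLE pools 1 to 3. Against control pools 1 and 3 alone (-2.46 ± 0.31, SD, n = 2), the MPLE mean of 0.87 ± 0.25 (SD, n = 3) was 3.33 log2 units higher, or 10.1-fold. Its probes differed by 3.63, 3.19 and 3.18, a spread of 0.45 that was wider than the member median of 0.15. Control pool 2, the array not used in choosing it, nevertheless lay inside the range of the MPLE pools, 3.29 above the mean of the other controls, and each of the 3 probes was above background there. The diets thus overlapped once control pool 2 was included. Taken over all 3 control pools, the difference was 2.23.

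The second target, Contig3067, kept its order when control pool 2 was included. The control pools stood at -0.65, -0.91 and -1.53, and the MPLE pools at -0.42, 0.56 and 0.33. All 3 controls were therefore below all 3 MPLE pools, although MPLE pool 1 lay only 0.23 above control pool 1. The difference from control pools 1 and 3 was 1.25 log2 units (2.37-fold), with 1.31, 1.23 and 1.20 by single probes, and 1.19 (2.28-fold) against all 3 controls. It narrowed to 0.80 without control pool 3 and widened to 1.69 without control pool 1, so a single control pool moved it considerably.

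For the third target by rank, the probes were in close accord and the pools were not. Its values were 2.09, 4.36 and 2.07 in the control pools and 3.34, 2.20 and 3.98 in the MPLE pools. The 3 probes gave the difference of 1.09 log2 units (2.13-fold) within a range of 0.03. However, MPLE pool 2 was only 0.11 above the higher of control pools 1 and 3, and control pool 2 was the brightest of the 6 pools, 2.17 above MPLE pool 2. In this target close probes did not go with close pools.

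**Figure D3:**
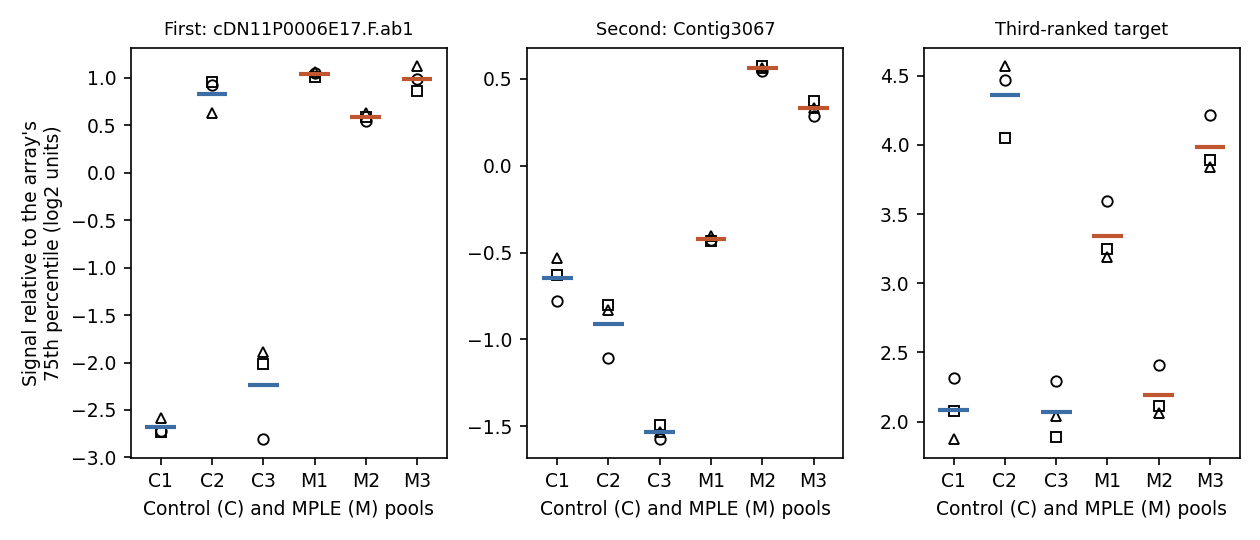
Scaled signal (log2 units, 0 is the array's 75th percentile) of the first 3 members in each of the 6 pools, with each probe as an open symbol and the mean over probes as a line; C2, control pool 2, was not used in choosing them. In the first and the third target control pool 2 lies with or above the MPLE pools, and in the second it lies between the other controls.

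Further down, the pools of a diet lay closer together in some members than in others. The ninth-ranked target stood at -3.82, -3.53 and -3.91 in the controls and at -2.90, -3.09 and -3.07 on the MPLE diet. Its difference from control pools 1 and 3 was 0.85, and its lowest MPLE pool lay 0.73 above the higher of those controls. Control pool 2 was its highest control, and its value minus that of the lowest MPLE pool was -0.43. The seventh-ranked target had control values of 2.68, 2.14 and 2.37 and MPLE values of 3.01, 3.48 and 3.39, a difference of 0.77. In both, control pool 2 was also below every MPLE pool, although in the ninth none of the probes was above background on that array. By contrast, the fifth-ranked target (difference 0.99) ran from -0.65 to 0.94 within the MPLE pools, with controls at -0.95, -1.10 and -0.75, so its lowest MPLE pool was near its highest control.

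The brightest member, thirteenth by rank, had control values of 4.11, 4.22 and 4.66 and MPLE values of 5.09, 4.95 and 5.08. The 5 dimmest members lay between -4.21 and -3.77 on average over the 5 arrays, and none of their probes was above background on control pool 2. Over the members, the median level was -1.22, against -0.63 over all measured targets. Brightness here describes how well a signal was measured, and levels of different probes are not set against each other as amounts of RNA.

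Every probe of a member is higher by the rule, and the sizes varied between probes. Within a target, the spread of the 3 probe differences had a median of 0.15 log2 units and ran from 0.02 to 0.94, against a median of 0.18 over all measured targets. It was smaller than the difference between diets in 99 of the 100 members, against 43.8% of all measured targets, a count that the choice of members by their weakest probe largely fixes. The range among the 3 MPLE pools had a median of 0.32 and that between control pools 1 and 3 of 0.16, close to the 0.36 and 0.19 of all measured targets. In 13 members the MPLE pools spanned more than the difference between diets (79.9% of all measured targets). The choice of members by large differences largely fixes this contrast too. The gap between the lowest MPLE pool and the highest of the 2 controls had a median of 0.30 and ran from 0.07 to 2.82, and in 36 members it was wider than the range within either diet, as in 126 of the 4503 measured targets and 39 of the 121 outside the limit. Since the rule asks for groups that do not overlap, these gaps are a description of the choice.

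The MPLE pools contributed unequally. Relative to control pools 1 and 3, the median over the members was 0.46 log2 units in MPLE pool 1, 0.65 in MPLE pool 2 and 0.56 in MPLE pool 3, while over all measured targets these medians were 0.03, 0.04 and 0.05. MPLE pool 2 was the highest in 57 members (41.7% of all measured targets), MPLE pool 3 in 24 (28.6%) and MPLE pool 1 in 19 (29.7%). MPLE pool 1 was the lowest in 51 (31.9% of all). Neither control stood out in this way: control pool 1 was the higher of the 2 in 52 members (54.3% of all) and control pool 3 in 48 (45.7%). In the 41 members with every probe above background on control pool 2, MPLE pool 2 was highest in 16. MPLE pool 3 was highest in 15 of these and MPLE pool 1 in 10. Control pool 3 was the higher of the 2 controls in 25 of the same members and control pool 1 in 16. The medians of these 41 were 0.49, 0.53 and 0.60 in MPLE pools 1 to 3. In the 144 targets lower by every probe, MPLE pool 2 was instead the lowest of the MPLE pools in 84 (58.3%), against 39.0% of all measured targets. It thus lay furthest from the controls most often in both directions. MPLE pool 2 was also the array with the highest 75th percentile and the largest share of spots above background. The part of this in its higher member values was not tested.

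**Figure D4:**
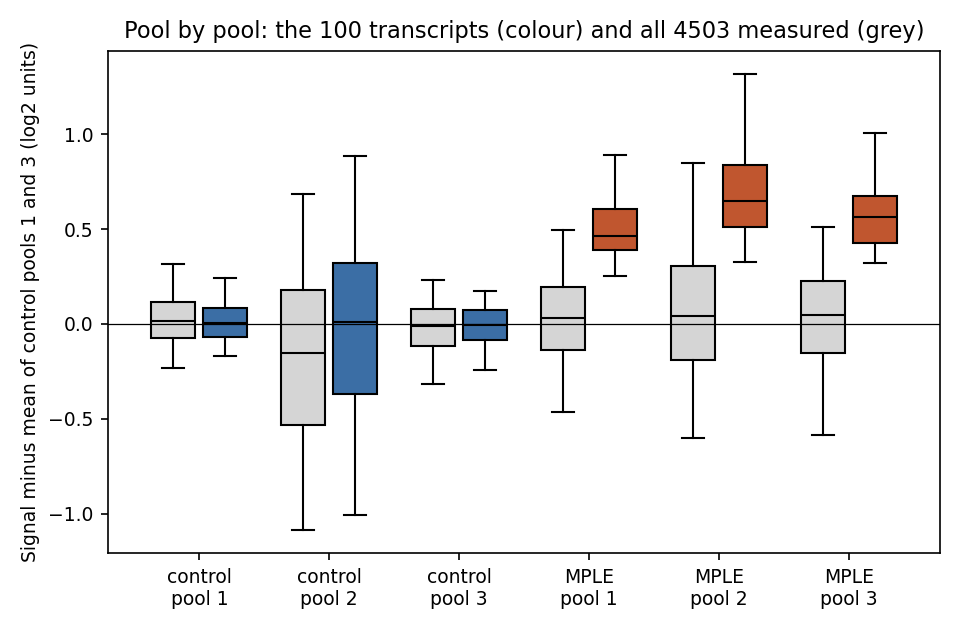
Scaled signal of each pool minus the mean of control pools 1 and 3 (log2 units) over the 100 members and over all 4503 measured targets; the line is the median, the box the quartiles and the whiskers run from the 5th to the 95th percentile. The 3 MPLE pools sit at medians of 0.46, 0.65 and 0.56 for the members, and control pool 2 at 0.01 with a wide spread.

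Control pool 2 is the only array that had no part in the choice of members. Its signal was weak there, with 163 of the 300 member probes above background, against 8574 of the 13537 probes of all measured targets. For probes with duplicate spots, the median SD between the spots was 0.35 log2 units on this array and 0.05 to 0.08 on the other 5. In 77 of the 100 members control pool 2 lay below every MPLE pool, against 49.3% of all measured targets. It lay above every MPLE pool in 7 members, against 23.8% of all. In the remaining 16 members it fell within the range of the MPLE pools. The MPLE pools had been chosen to be high, and with 1 array no test of these counts was made.

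The count was not kept under every alternative. With normexp correction of the median spot signals in place of the processed signal, 26 of the 100 members had control pool 2 below every MPLE pool, against 22.1% of all measured targets under the same setting, so the members' count was then near that of all targets. With quantile normalization it was 71, against 48.8%. In the deposited log2 table, which is not scaled between arrays, it was 99, and the share over all measured targets was not counted there. Restricted to the 41 members with every probe above background on control pool 2, the count was 27 (65.9%), against 33.0% of the 2261 targets measured in the same way. In the other 59 members, with a probe not above background there, it was 50 (84.7%), against 65.7% of the 2242 measured targets of that kind. Among the 41, control pool 2 lay above every MPLE pool in 4, or 9.76%, against 36.6% of the 2261.

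Where control pool 2 stood relative to the other controls varied widely between members. Its value minus the mean of control pools 1 and 3 had a median of 0.01 log2 units over the 100 members and ran from -1.64 to 3.29, against a median of -0.15 over all measured targets. The MPLE mean exceeded control pool 2 in 86 members, against 2879 of the 4503 measured targets. It exceeded the mean of all 3 controls in 100 members, against 2803 of the 4503, with a median difference of 0.58, but this mean holds the 2 control pools that the rule used. The 121 targets just outside the limit gave a like count, with control pool 2 below every MPLE pool in 94 (77.7%). In the mirror group, the 144 targets lower by every probe, control pool 2 lay above every MPLE pool in 78 (54.2%), against 23.8% of all. The MPLE pools were chosen high in the members and in the 121, and low in the mirror group. That choice by itself can raise these shares above those of all measured targets, and nothing about the diets is read from them.

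**Figure D5:**
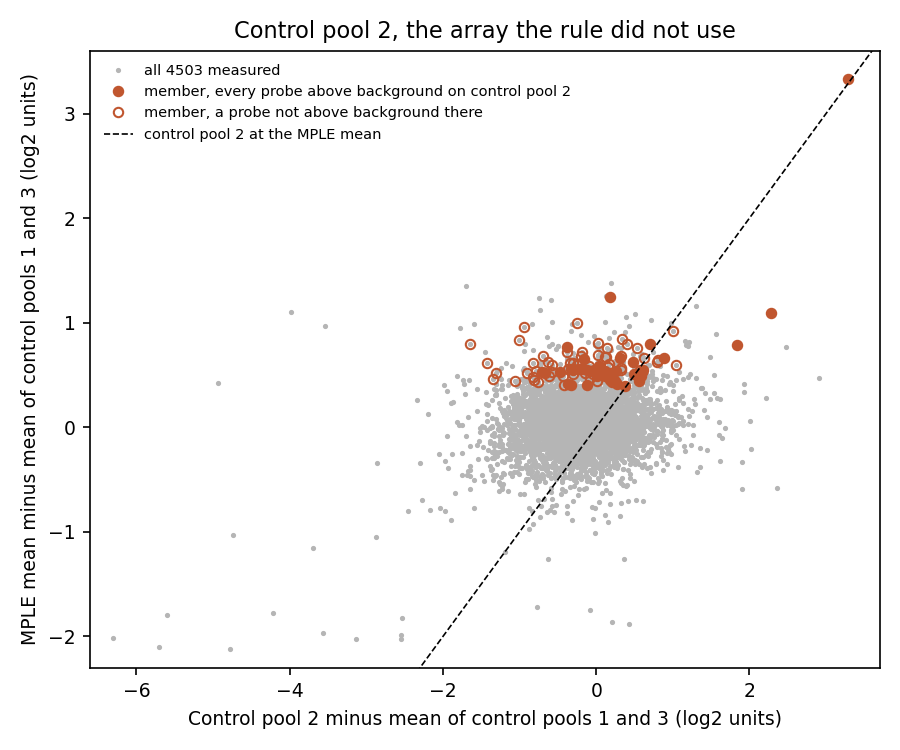
For each target, control pool 2 minus the mean of control pools 1 and 3 (horizontal, log2 units) against the MPLE mean minus the same mean (vertical, log2 units), with the 100 members over all 4503 measured targets and filled points for members whose every probe was above background on control pool 2. Members above the dashed line (86 of 100) had an MPLE mean above control pool 2, and the first target lies close to the line.

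When the rule was applied to all 6 arrays, 1.28% of the 2261 targets measured on each of them were higher on the MPLE diet by every probe (29) and 1.37% were lower (31). Of the 41 members that could be assessed, 16 met it, among them the second-ranked and seventh-ranked targets, which were 2 of the 4 assessable members in the first 10. In these 16 members the MPLE mean exceeded the mean of the 3 controls by 0.44 to 1.19 log2 units, with a median of 0.61 (1.53-fold, range 1.36 to 2.28). The gap between the lowest MPLE pool and the highest control had a median of 0.31 and ran from 0.10 to 0.50. The rule on all 6 arrays asks for such a gap in every probe, so the direction of both measures follows from the choice of these 16. The 41 had already met the rule without control pool 2, so 16 of 41 is not a fair share to set beside the 1.28%. Nothing about the diets is read from these values. The widest gap was in the target ranked 58, with controls at -1.56, -1.93 and -1.63 and MPLE pools at -1.07, -1.02 and -1.01.

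A fit across all probes and all 6 arrays gave no call after adjustment. With limma, 682 of 20224 probes (3.37%) were higher on the MPLE diet at an unadjusted p below 0.05 and 291 were lower, and none passed the Benjamini-Hochberg adjusted threshold of 0.05, the smallest adjusted p being 0.789. A plain unpaired test of each probe on the same values called 1042 probes unadjusted and 0 adjusted. Of the 300 member probes, 174 were among the 682, and since the rule used 5 of these 6 arrays nothing is read from that count. The limma split of 682 higher to 291 lower was not kept under other filters. Among probes above background on all 6 arrays, 267 were higher and 287 lower. With no filter on dim probes the split was 364 to 361, and without control pool 2 it was 563 to 497. It was 33 to 51 with normexp and 279 to 4 with the deposited table, which is not scaled between arrays.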

How the data were processed

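Intestinal RNA of gilthead seabream was hybridised to one-colour oligonucleotide arrays, 3 pools per diet, and groups were taken from the sample labels. The authors deposited the scanner output, in which spot values are intensity on a linear scale, background-subtracted within each array by Feature Extraction 10.7.3.1, with well-above-background and outlier flags. The authors also deposited a log2 table, which equalled log2 of the background-subtracted signal within 5e-09 and was not scaled between arrays; it served as an alternative.

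Control spots (1417 per array) were left out, each array was centred at the 75th percentile of its log2 processed signal, and the spots of each probe were averaged (Python 3.11.15, pandas 2.3.3). Members and lists were chosen with earlier results of these data known. The named-target rule took the first 10 members, the 5 brightest, the 5 dimmest, those with the most probes and those with the highest control pool 2; as the names are not paired with genes, only the first 2 names are printed, and the member ranked 58 was picked after its values were seen. Probes that cleared background on the 3 arrays of either diet were tested between diets with limma 3.58.1 in R 4.3.3, after outlier-flagged spots were removed, and the scripts were tested on simulated data. The 6 arrays lay on 6 slides. Their number limits the precision, and the p-values measure the spread between pools. Alternatives were quantile normalization, normexp correction (offset 50), the log2 table, other filters, a replicate block, an unpaired test per probe as in the study's methods, all 6 arrays and leaving out each pool.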

Additional observations from a re-analysis of the deposited data

Results flagged for a closer look

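The array of control pool 2 had no part in choosing the members. It lay above every MPLE pool in 7 of the 100 members, against 23.8% of all measured targets. The third target by rank was among the 7. In the first-ranked target, cDN11P0006E17.F.ab1, control pool 2 stood 3.29 log2 units above the mean of the other controls, inside the range of the MPLE pools, with each of its 3 probes above background.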

How the results depend on the processing

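The members' median difference of 0.55 log2 units stayed between 0.50 and 0.71 in every alternative run. It was taken over the same 100 targets each time, chosen for their difference on these arrays, so this steadiness largely follows from the choice. The 221 targets higher by every probe became 43 with the deposited table and 29 with all 6 arrays. Leaving out 1 pool gave 322 (MPLE pool 3), 412 (MPLE pool 1), 501 (control pool 3), 514 (MPLE pool 2) and 725 (control pool 1), since the rule asks less of fewer arrays. Of the members, 77 still met the rule with quantile normalization, 74 with normexp, 23 with the deposited table and 16 with all 6 arrays, where 41 could be assessed. Chosen anew, the 100 largest held 73 of the members with quantile normalization, 20 with normexp, 23 with the deposited table, 32 without the filter on dim probes, 16 with all 6 arrays, 21 without control pool 1, 52 without control pool 3 and 50, 54 and 60 without MPLE pools 1, 2 and 3. Control pool 2 lay below every MPLE pool in 77 members, against 49.3% of all measured targets. With normexp, which here also took median in place of processed signals, the count became 26, against 22.1% of all. It was 27 among the 41 members above background on control pool 2, against 33.0% of the 2261 targets measured in the same way. That restriction was chosen after seeing the data, as was the mean of all 3 controls. The count was 99 with the deposited table, which is not scaled between arrays, and 77 to 81 when 1 pool was left out. By limma, 973 probes differed at an unadjusted p below 0.05, and 84 did with normexp, 283 with the deposited table, 554 when above background on all 6 arrays, 626 without MPLE pool 2, 501 without MPLE pool 3 and 1410 at most, without control pool 1. After adjustment the count of 0 became 1 with the deposited table and 0 to 3 when 1 pool was left out (2 without control pool 3, 1 without MPLE pool 2, 3 without MPLE pool 3), where the causes were not tested. The first target's difference of 3.33 became 2.97 with normexp and 2.23 with all 6 arrays. Deviations of pools with the same number correlated at -0.14, 0.03 and 0.17 across probes. The labels give such pools only a shared number, and whether they were handled together is not known. A replicate block gave 755 probes unadjusted and 0 adjusted. No block could be fitted for slide or scan day, since each array had its own slide and each scan day held 1 diet.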
